A study of Mus musculus with 2 samples.

Results

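The 7 genes described here encode receptors and an enzyme through which microglia sense and clear extracellular nucleotides, and a related lipid receptor, Gpr34. They are the ADP receptors P2ry12 and P2ry13, the UDP receptor P2ry6, the lysophosphatidylserine receptor Gpr34, the ATP-gated channels P2rx4 and P2rx7, and the ectonucleotidase Entpd1. They were chosen by symbol, each matching 1 row of both deposited gene tables, and are 7 of 27998 genes listed.

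The cells were sorted for tdTomato from spinal cord of mice carrying Cx3cr1-CreER::Rosa26-tdTomato, whose background strain was C57BL/6J. The injured library came from cord taken 5 days after lysolecithin, a lipid that strips myelin, and the uninjured library from age-matched cord without it. In both, the tamoxifen derivative 4-OHT had been given as 2 injections of 1 mg at postnatal week 4, which marks for good with tdTomato any cell then expressing Cx3cr1, the gene of the fractalkine receptor, and cords were taken 4 weeks later. Both cords were digested with collagenase for 1 h at 37 °C before the sort. Because Cx3cr1 drives the recombinase, the sort takes microglia together with border macrophages and any other cell that had used that promoter. How many animals were pooled, and of which sex, is not given in the labels. There was 1 library in each group, so no difference below has a replicate check, and every interval covers counting error only.

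Damaged cells release ATP, which microglia read through ion channels and G-protein-coupled receptors on their surface. The ATP-gated channels open directly, whereas the ADP receptors couple to inhibitory G proteins and steer the movement of microglial processes towards a lesion. Ectonucleotidases take ATP and ADP down to AMP, so the same cells both read and remove the signal. P2ry12 is widely used to tell resting microglia from other brain macrophages.

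After filtering there were 577 injured and 695 uninjured cells. Median depth per cell was 4396 UMIs (unique molecular identifiers, each counting 1 captured RNA molecule) in the injured library and 3003 in the uninjured library. Total UMIs were 3095511 and 2093084, and the libraries shared 0 cell barcodes. The 8 microglia markers summed to 14612 CPM (UMIs per 1000000 UMIs of the library) in the injured library and 21582 CPM in the uninjured library, with UMIs of all 8 genes in both. Markers of endothelial cells summed to 22.3 and 110 CPM, those of border macrophages to 128 and 69.8 CPM. Those of monocytes summed to 17.1 and 7.17 CPM. Platelets also carry P2ry12; the platelet and megakaryocyte list summed to 1.29 and 1.43 CPM, and Ppbp, Itga2b, Gp1ba and Gp1bb were at 0. An 11-gene list of the early response to warm dissociation summed to 6783 CPM in the injured library and 15873 CPM in the uninjured library. The libraries also differed in sex-linked RNA. Cells with Xist UMIs and no Y-linked UMIs numbered 213 in the injured library and 6 in the uninjured library, while cells with Y-linked UMIs alone numbered 147 and 235. The part of these differences in the results below was not tested, except where a value without the cells in question is given.

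CPM was at least 2-fold lower in the injured library than in the uninjured library for 4 of the 7 genes, P2ry12, P2ry13, Entpd1 and P2rx7. It was lower by a smaller factor for Gpr34 and P2ry6 and higher for P2rx4. Over all 9066 genes with at least 20 UMIs in the libraries together, 11.5% were at least 2-fold lower and 7.22% at least 2-fold higher, and the median log2 ratio was -0.15. The median over the 7 genes was -1.04. All 7 passed the UMI minimum. The counting interval of the log2 ratio lay below 0 for 5 genes, above 0 for 1 and held 0 for 1. P2ry12 and P2ry13 were at least 2-fold lower under every scaling tried. P2rx7 fell short of 2-fold with TMM scaling, DESeq2 size factors, CPM averaged over cells or thinned cells, and Entpd1 with DESeq2 factors or averaged CPM. The count was therefore 3 with TMM or thinning and 2 with DESeq2 factors or averaged CPM.

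**Figure D1:**
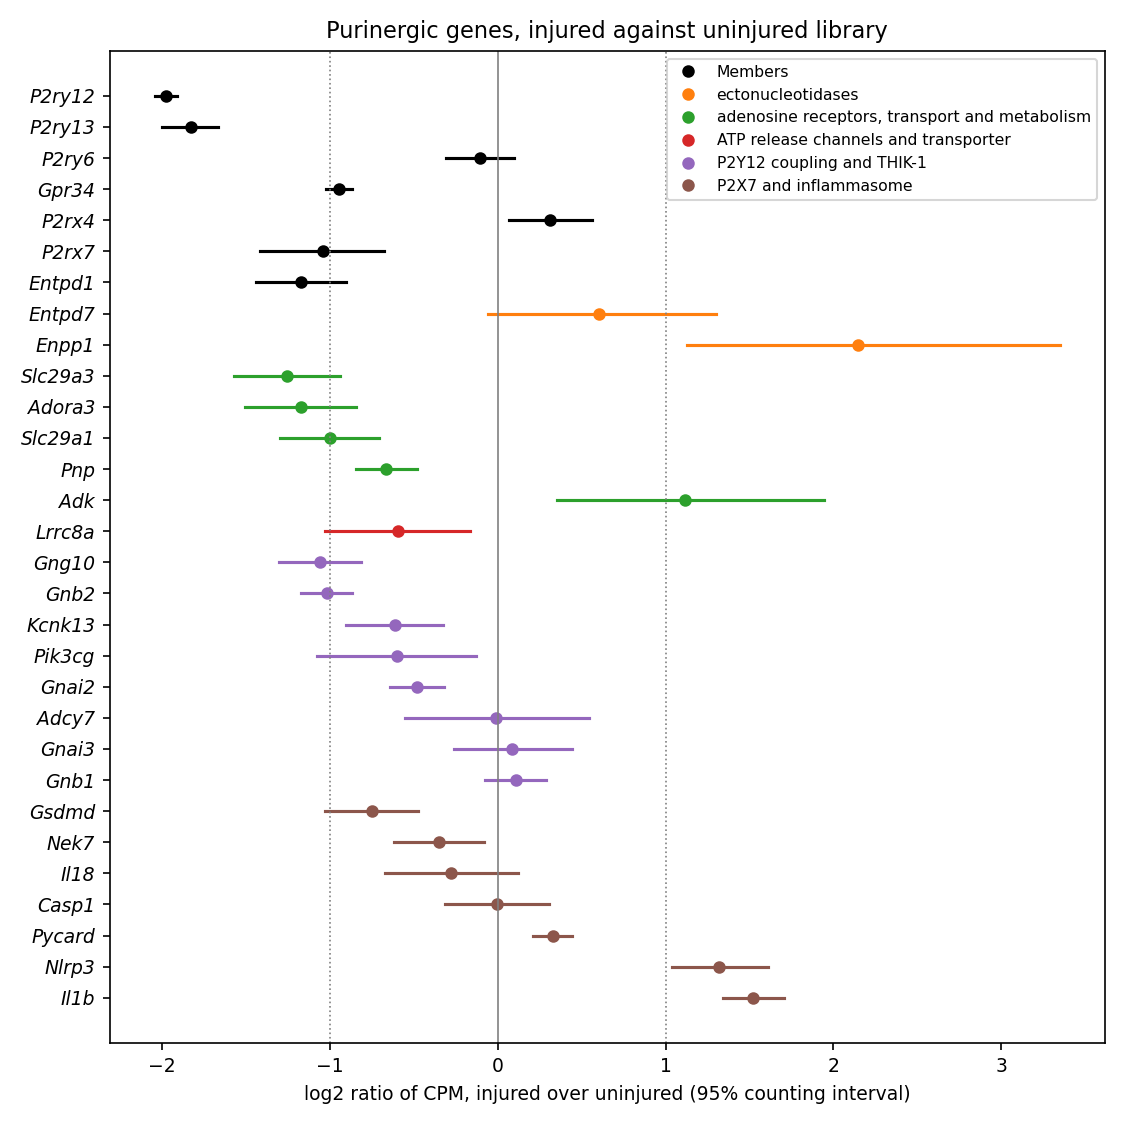
The log2 ratio of CPM, injured over uninjured, is plotted for the 7 genes (black) and for the wider purinergic genes with at least 50 UMIs in a library, with 95% counting intervals and dotted lines at 2-fold. P2ry12 and P2ry13 lie farthest left, and Enpp1, Il1b and Nlrp3 farthest right.

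The ADP receptors P2ry12 and P2ry13 showed the largest differences. P2ry12 (ENSMUSG00000036353, GRCm38 chromosome 3, 59216272 to 59262871, minus strand) had 2592 UMIs in the injured library, 837 CPM (95% interval 805 to 870), and 6894 UMIs in the uninjured library, 3294 CPM (3216 to 3372). The log2 ratio was -1.98 (-2.04 to -1.91), which is 3.93-fold lower in the injured library. P2ry13, whose product also answers ADP, lies beside it on the same strand (ENSMUSG00000036362, 59207892 to 59210882). It had 422 UMIs, 136 CPM, in the injured library and 1014 UMIs, 484 CPM, in the uninjured library. Its log2 ratio was -1.83 (-2.0 to -1.66). The ratios of P2ry12 and P2ry13 differed by -0.15 on the log2 scale, with an interval of -0.32 to 0.03 that holds 0. Both genes lie inside Med12l on its opposite strand. Med12l had 23 UMIs in the injured library and 29 in the uninjured library, far fewer than either receptor gene, and whether strand was used in counting is not given in the sources used here.

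Per cell, P2ry12 averaged 4.49 UMIs in the injured library and 9.92 in the uninjured library, and P2ry13 averaged 0.731 and 1.46. Thus both were lower per captured cell as well as in CPM. More RNA in a cell and more efficient capture of it cannot be told apart in these counts. To bring cells to equal depth, each was thinned at random to 1500 UMIs, which left 567 injured and 604 uninjured cells. After thinning, P2ry12 UMIs per injured cell ran from 0 to 13 with a median of 1 (quartiles 0 and 2). In uninjured cells they ran from 0 to 20 with a median of 5 (quartiles 3 and 7). The distributions overlapped, and they parted at the ends. No P2ry12 UMI was drawn in 40.9% of injured cells and 3.81% of uninjured cells, while 10 or more were drawn in 0.705% and 11.4%.

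The share of cells with a P2ry12 UMI at 1500 UMIs was 59.1% (54.9% to 63.2%) in the injured library and 96.2% (94.3% to 97.6%) in the uninjured library. Averaged exactly over all possible draws, the shares were 61.8% and 95.1%. Before thinning they were 85.8% and 97.6%. For P2ry13 the thinned shares were 18.7% and 47.5%, and the unthinned shares 45.2% and 67.5%. As a background, barcodes with endothelial or oligodendrocyte precursor markers numbered 6 in the injured library, with a median of 3258 UMIs, and 4 in the uninjured library, with a median of 1737 UMIs. P2ry12 UMIs were found in 0% of the injured and 50% of the uninjured barcodes of this kind, 0 and 3 UMIs in all.

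**Figure D2:**
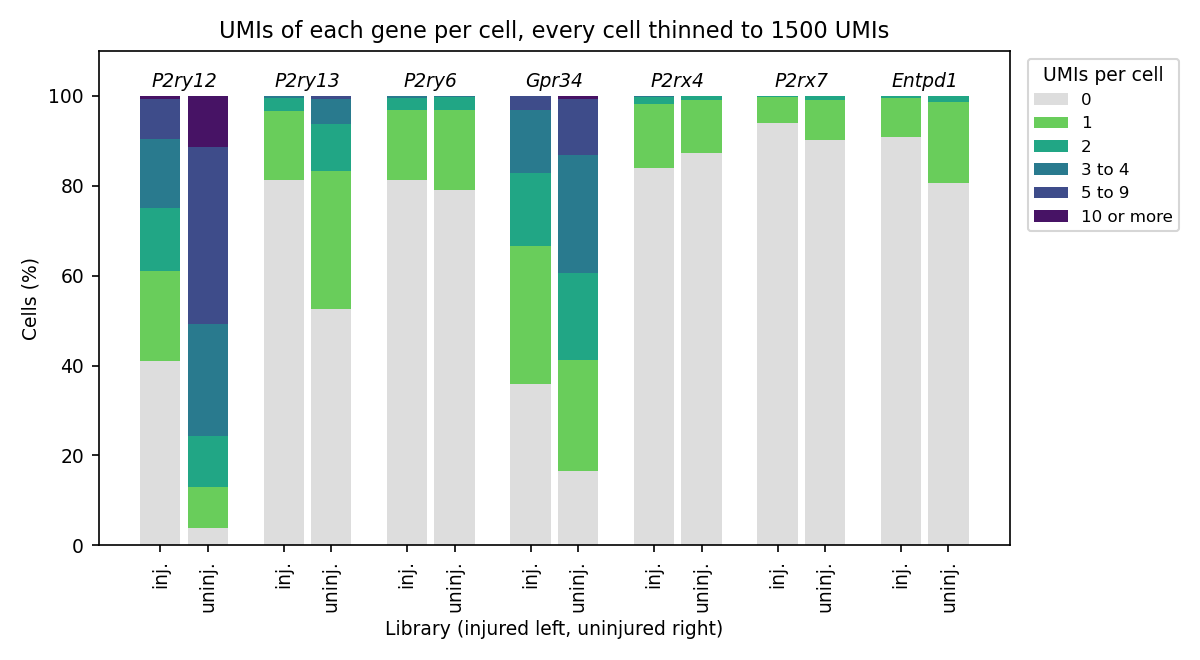
Stacked bars give the percentage of cells by number of UMIs of each of the 7 genes per cell, after thinning to 1500 UMIs, in 567 injured (left bar) and 604 uninjured (right bar) cells. For P2ry12 the grey part, cells with 0 UMIs, is 40.9% of the injured and 3.81% of the uninjured bar, and for P2ry6 the bars are nearly alike.

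Because the ADP receptor genes are neighbours and had like ratios, their start regions are shown side by side. Each runs from 250 bases before to 50 bases after the transcript start in RefSeq, build GRCm38.p6, minus strand, written 5′ to 3′. They are chr3:59262936-59263235 for P2ry12 and chr3:59210833-59211132 for P2ry13. Capitals mark the motif AGGAAG and, where it overlaps, the PU box (the letters GAGGAA, the core bound by the macrophage factor PU.1).
P2ry12: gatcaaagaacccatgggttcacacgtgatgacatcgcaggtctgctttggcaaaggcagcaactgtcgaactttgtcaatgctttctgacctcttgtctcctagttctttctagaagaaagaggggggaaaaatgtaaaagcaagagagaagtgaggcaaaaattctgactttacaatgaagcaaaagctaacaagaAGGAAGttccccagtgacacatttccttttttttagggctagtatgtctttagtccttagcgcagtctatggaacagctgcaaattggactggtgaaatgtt
P2ry13: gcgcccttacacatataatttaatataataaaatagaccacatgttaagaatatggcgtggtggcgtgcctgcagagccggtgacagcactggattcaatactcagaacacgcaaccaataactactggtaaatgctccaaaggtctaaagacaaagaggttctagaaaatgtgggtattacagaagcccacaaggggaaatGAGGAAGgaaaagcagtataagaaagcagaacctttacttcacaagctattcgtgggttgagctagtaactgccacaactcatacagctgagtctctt
The motif AGGAAG begins 52 bases before the start in P2ry12 and 47 bases before it in P2ry13, and it was chosen after the sequences had been read. The PU box, searched on both strands, occurs in the P2ry13 stretch and not in that of P2ry12. The AP-1 motif TGANTCA, also searched, occurs in neither stretch. AGGAAG and the PU box are not particular to the ADP receptor genes, as both also occur in windows of P2rx7 and Entpd1. The P2rx4 window holds neither. Of 32851 promoter windows of the same length, searched on both strands, 35.4% hold the first of these motifs, 28.3% hold the PU box and 7.81% hold the AP-1 motif. For P2ry12 the GENCODE start lies 114 bases downstream of the RefSeq start used here, and for P2ry13 the starts coincide.

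The UDP receptor P2ry6, known in microglia for prompting phagocytosis, was the gene nearest to no difference (ENSMUSG00000048779, chromosome 7, 100937630 to 100974649, minus strand). It had 478 UMIs, 154 CPM (141 to 169), in the injured library and 348 UMIs, 166 CPM (149 to 185), in the uninjured library. The log2 ratio of -0.11 (-0.31 to 0.10) held 0 in its interval. With TMM or DESeq2 scaling it was 0.04 or 0.08, so its sign is not settled by these counts. Per cell P2ry6 averaged 0.828 UMIs in injured and 0.501 in uninjured cells. Unthinned, 51.6% of injured and 36.4% of uninjured cells held a P2ry6 UMI, and at equal depth 18.7% and 21.0% did.

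Gpr34 encodes a receptor for lysophosphatidylserine that is close in sequence to the P2Y12 group (ENSMUSG00000040229, chromosome X, 13632089 to 13640858, plus strand). It had 2410 UMIs, 779 CPM (748 to 810), in the injured library and 3136 UMIs, 1498 CPM (1446 to 1552), in the uninjured library. The log2 ratio was -0.94 (-1.02 to -0.87), just short of 2-fold. The drop was smaller than that of P2ry12 by 1.03 on the log2 scale (P2ry12 minus Gpr34 -1.03, -1.13 to -0.93). Counted per cell the libraries were close, at 4.18 UMIs (4.01 to 4.35) in injured and 4.51 UMIs (4.36 to 4.67) in uninjured cells. Thinned shares were 64.0% and 83.4%, unthinned shares 88.2% and 93.1%. Gpr34 lies inside Cask on the opposite strand, and Cask had 33 UMIs in the injured library and 85 in the uninjured library. As Gpr34 is X-linked, injured cells with Xist alone (213) were set against injured cells with Y-linked UMIs alone (147). Their Gpr34 levels were 785 and 720 CPM, a log2 ratio of 0.12 (-0.03 to 0.27). In the uninjured library, with 6 and 235 such cells, Gpr34 was at 891 and 1372 CPM, a ratio of -0.62 (-1.30 to -0.02).

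The ATP-gated channels parted. P2rx4, a channel that is sensitive to low ATP and known in spinal microglia for its part in nerve-injury pain, was the only one of the 7 genes with a higher CPM in the injured library, although with TMM or DESeq2 scaling P2ry6 was above 0 as well. P2rx4 (ENSMUSG00000029470, chromosome 5, 122707544 to 122729738, plus strand) had 388 UMIs, 125 CPM (113 to 138), in the injured library and 211 UMIs, 100.8 CPM (87.7 to 115), in the uninjured library. Its log2 ratio was 0.31 (0.07 to 0.56). In the cells with Y-linked UMIs alone it was 0.16. P2rx7, which needs high ATP and is known for inflammasome activation, lies next to it on the same strand (ENSMUSG00000029468, 122643911 to 122691432). It had 107 UMIs, 34.6 CPM (28.3 to 41.8), in the injured library and 149 UMIs, 71.2 CPM (60.2 to 83.6), in the uninjured library. The P2rx7 log2 ratio was -1.04 (-1.41 to -0.67), and 20.6% of its injured UMIs came from 10 cells. It was -0.89 with TMM, -0.86 with DESeq2 factors, -0.81 for averaged CPM, -0.74 for thinned cells and -0.95 without clusters 0 and 1 of the clustering described further on, each short of 2-fold. The ratio of P2rx4 exceeded that of P2rx7 by 1.35 (0.91 to 1.81) on the log2 scale.

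Per cell, P2rx4 averaged 0.672 UMIs in injured and 0.304 in uninjured cells, and P2rx7 averaged 0.185 and 0.214. At equal depth 16.0% (13.1% to 19.3%) of injured and 12.7% (10.2% to 15.7%) of uninjured cells held a P2rx4 UMI, and the intervals overlapped. For P2rx7 the thinned shares were 6.17% and 9.93%. Before thinning the P2rx4 shares were 43.0% and 25.8%, and the P2rx7 shares 15.3% and 18.4%.

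Entpd1 encodes CD39, the main microglial ectonucleotidase, which turns ATP and ADP into AMP (ENSMUSG00000048120, chromosome 19, 40612366 to 40741602, plus strand). It had 193 UMIs, 62.3 CPM (53.9 to 71.8), in the injured library and 294 UMIs, 140 CPM (125 to 157), in the uninjured library. The log2 ratio was -1.17 (-1.44 to -0.90), and -0.99 with DESeq2 factors and -0.97 for averaged CPM. Per cell it averaged 0.334 UMIs in injured and 0.423 UMIs in uninjured cells. Thinned shares were 9.17% (6.93% to 11.9%) and 19.4% (16.3% to 22.8%), and unthinned shares 26.3% and 32.4%. The Entpd1 ratio was not set apart from that of Gpr34 (Gpr34 minus Entpd1 0.23, -0.05 to 0.51) or of P2rx7 (P2rx7 minus Entpd1 0.13, -0.33 to 0.59). Among the 21 pairs of the 7 genes, the interval of the difference in ratio excluded 0 for 17.

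At equal depth a median of 2 of the 7 genes was detected per injured cell and 3 per uninjured cell. None was detected in 64 injured cells (11.3%) and 8 uninjured cells (1.32%). Within the injured library, cells with a P2ry12 UMI (335) and without one (232) also differed in other genes of the group. A Gpr34 UMI was found in 71.6% (66.5% to 76.4%) of injured cells with P2ry12 and 53.0% (46.4% to 59.6%) of those without. An Entpd1 UMI was found in 12.8% (9.45% to 16.9%) and 3.88% (1.79% to 7.24%). For P2ry13 the shares were 21.5% and 14.7%, with intervals that overlapped. P2ry6 (19.4% and 17.7%), P2rx4 (16.1% and 15.9%) and P2rx7 (6.57% and 5.60%) differed less between these cells, with intervals that overlapped. In the uninjured library, 581 cells had a P2ry12 UMI and 23 had none. A Gpr34 UMI was found in 85.2% (82.0% to 88.0%) of the uninjured cells with P2ry12 and 39.1% (19.7% to 61.5%) of those without. P2rx4 went the other way there, with 11.9% (9.36% to 14.8%) and 34.8% (16.4% to 57.3%). The uninjured library also held 9 cells of cluster 7, the border macrophage-like cluster described further on. Before thinning, 22.2% of these 9 cells had a P2ry12 UMI, 22.2% a Gpr34 UMI and 77.8% a P2rx4 UMI. Their part in the shares of the 23 cells was not tested. For P2ry13, P2ry6, P2rx7 and Entpd1 the uninjured intervals overlapped. Across cells the Pearson correlation of P2ry12 with Gpr34 was 0.28 in 567 injured cells and 0.26 in 604 uninjured cells. Cells of a library share its preparation and depth, and the correlations of the other pairs were 0.16 or lower, too weak to read in counts this sparse.

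The cells of both libraries were clustered without the 7 genes and without the other purinergic genes. Clusters are called by number and leading genes. Injured cells fell mainly in cluster 3 (205 cells, led by Cldn5, Ptn and Fabp7), cluster 4 (179, led by Fn1, Lpl and Igf1), cluster 6 (54, led by Apoc1, Spp1 and Cst7), cluster 8 (41, led by the interferon-induced Rsad2, Ifit3 and Ifit3b) and cluster 5 (33, led by Bmp2k, Zfp691 and Kdm6b). Uninjured cells fell mainly in cluster 2 (195, led by Fabp4, Il16 and Serpinf1), cluster 1 (190, led by Rmi2, Ddit4 and Cd27), cluster 0 (118, led by Hspa1a, Batf and Tagap) and cluster 5 (109). Cldn5 marks endothelial cells; the endothelial list stood at 12.5 CPM (10 UMIs) in the injured and 1312 CPM (171 UMIs) in the uninjured cells of cluster 3, and the microglia list at 15474 and 16132 CPM. Since most clusters belong largely to 1 library, a cluster and its library cannot be told apart there.

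P2ry12 was lowest in injured cluster 4, at 342 CPM (313 to 374). Injured clusters 6 and 8 had 663 and 761 CPM, with overlapping intervals, and injured clusters 3 and 5 had 1456 and 1737 CPM. The uninjured clusters with at least 20 cells ran from 1681 CPM in cluster 3 through 1978 CPM in cluster 6, 2902 CPM in cluster 0, 3248 CPM in cluster 5 and 3566 CPM in cluster 1 to 4089 CPM (3924 to 4259) in cluster 2. The highest injured cluster was 5.07-fold above the lowest. At a finer clustering (resolution 1.2) the log2 of that range was 4.38, against 2.34 here. In cluster 4 the median cell held 8163 UMIs, and P2ry12 averaged 2.83 UMIs per cell there, against 11.8 in uninjured cluster 2. Gpr34 averaged 5.42 and 5.56 UMIs per cell in the same clusters, and its CPM was 657 and 1922. The median cell of uninjured cluster 2 held 2930 UMIs. The part of this difference in depth in the Gpr34 levels was not tested.

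The other genes spread over smaller ranges of the injured clusters at this resolution. Gpr34 ran from 577 CPM in cluster 8 to 1216 CPM in cluster 5, and P2ry13 from 116 CPM in cluster 6 to 240 CPM in cluster 5, with 222 CPM in cluster 8. Entpd1 ran from 30.5 CPM in cluster 4 to 108 CPM in cluster 5. P2ry6 stayed between 133 and 180 CPM, P2rx4 between 108 and 154 CPM and P2rx7 between 26.7 and 49.6 CPM. For P2ry13, P2ry6, P2rx4 and P2rx7 the intervals of the highest and the lowest injured cluster overlapped. They did not overlap for Gpr34 (484 to 684 CPM in cluster 8, 1028 to 1429 CPM in cluster 5). Nor did they for Entpd1 (22.2 to 40.7 CPM in cluster 4, 57.3 to 184 CPM in cluster 5). These spreads depend on the clustering. At resolution 1.2 the log2 of the highest over the lowest injured cluster was 1.75 for P2rx4, against 0.52 here, and 2.29 for P2rx7, against 0.89. At resolution 0.5 it was 1.03 for P2ry6, against 0.44 here. For P2ry13 and Gpr34 it was 2.27 and 2.22 at resolution 1.2, against 1.05 and 1.07. Among uninjured clusters P2ry6 ran wider, from 61.8 CPM (3 UMIs) in cluster 6 to 236 CPM in cluster 2.

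**Figure D3:**
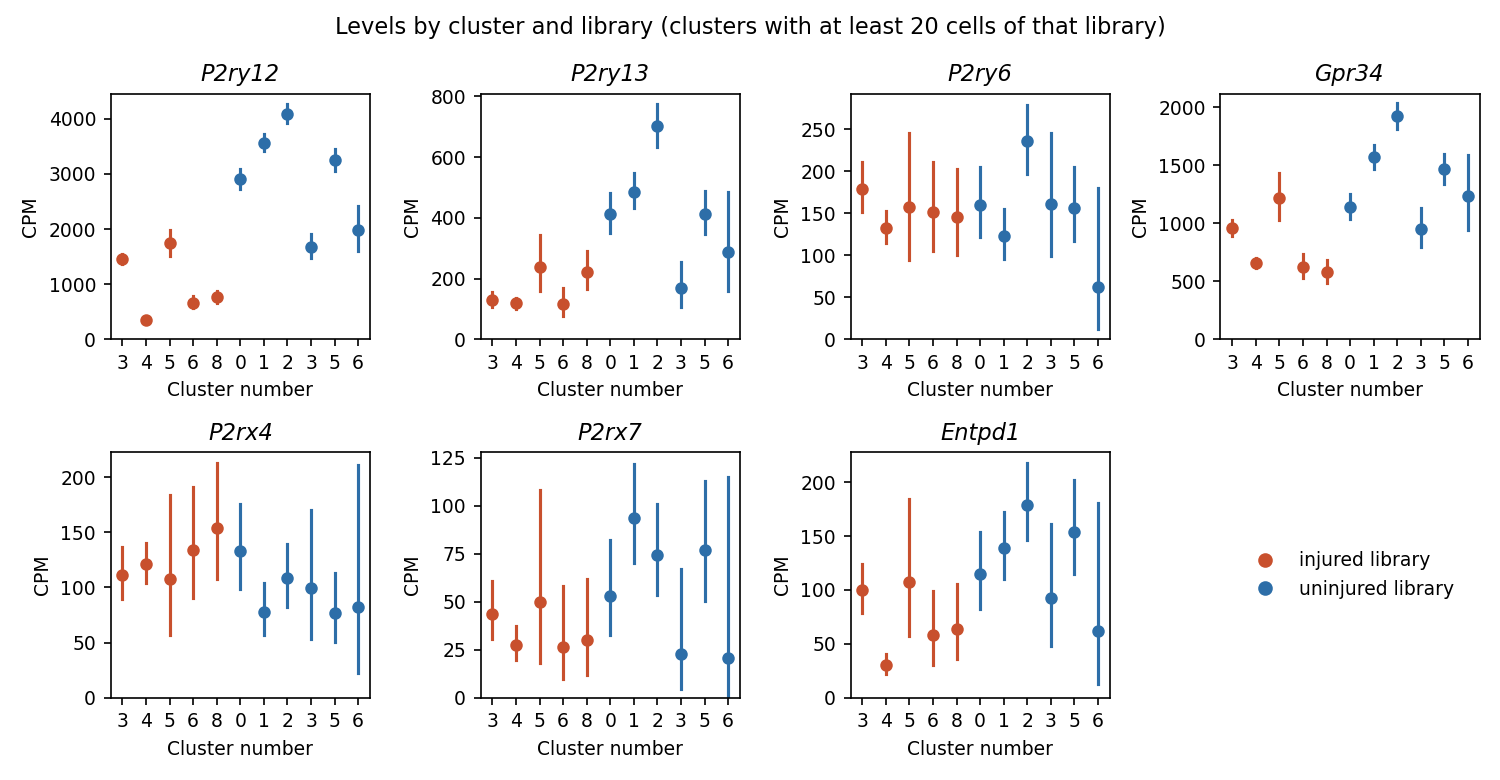
CPM of each of the 7 genes is plotted by cluster with 95% counting intervals, injured clusters on the left and uninjured clusters on the right, for clusters with at least 20 cells of that library. P2ry12 is lowest in injured cluster 4 and highest in uninjured cluster 2. P2ry6 is also highest in uninjured cluster 2, at 236 CPM (197 to 279), above injured cluster 4 at 133 CPM (115 to 153).

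Clusters 3, 5 and 6 held at least 20 cells of each library. In cluster 3 the P2ry12 log2 ratio, injured over uninjured, was -0.21 (-0.42 to 0.01) and that of Gpr34 was 0.01 (-0.27 to 0.29), from 205 and 39 cells. Endothelial markers were carried by 0 of these injured and 4 of these uninjured cells. Without the 6 injured and 4 uninjured barcodes with markers of other cells, a choice made after seeing the data, the P2ry12 ratio in cluster 3 was -0.26 (-0.48 to -0.05) and the Gpr34 ratio -0.03 (-0.31 to 0.25). In cluster 5 the P2ry12 ratio was -0.90 (-1.12 to -0.69) and the P2ry13 ratio -0.79 (-1.42 to -0.20), from 33 and 109 cells. In cluster 6 they were -1.58 (-1.96 to -1.19) and -1.32 (-2.31 to -0.27), from 54 and 30 cells whose median UMIs were 3718 and 1571. The Gpr34 ratio was -0.27 (-0.54 to 0.001) in cluster 5 and -0.99 (-1.43 to -0.53) in cluster 6. The P2ry12 interval thus lay below 0 in clusters 5 and 6, and in cluster 3 once those barcodes were left out.

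Cluster 7 was led by H2-Eb1, H2-Aa and H2-Ab1 and had 2538 CPM of the border macrophage list and 3991 CPM of the microglia list, and is called border macrophage-like. This cluster also had 212 CPM of the monocyte list, more than any other cluster. It held 19 injured and 9 uninjured cells. P2ry12 stood at 124 CPM (11 UMIs) in the injured and 58.7 CPM (2 UMIs) in the uninjured cells of this cluster. P2rx4 stood at 249 CPM (22 UMIs) and 323 CPM (11 UMIs), above its whole-library levels of 125 and 100.8 CPM. Without cluster 7, a choice made after seeing the data, the P2rx4 log2 ratio between the libraries was 0.33.

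Within the injured library, cells were also divided by UMIs of genes outside the purinergic group. Cells with Spp1 (osteopontin, a damage-associated gene) numbered 525, with a median of 4655 UMIs, and those without it 52, with a median of 3056.5 UMIs. P2ry12 was at 784 CPM with Spp1 and 1820 CPM without, a log2 ratio of -1.21 (-1.39 to -1.03), and -0.91 (-1.10 to -0.71) when cells were thinned first. Gpr34 was at 758 and 1152 CPM, a log2 ratio of -0.60 (-0.82 to -0.38), and -0.32 (-0.55 to -0.08) after thinning. Thinned cells were divided anew, into 431 with Spp1 and 136 without. The P2ry13 ratio was -0.87 (-1.35 to -0.35) as counted and -0.25 (-0.83 to 0.35) after thinning.

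Cells with Gpnmb, a lysosomal glycoprotein of lipid-laden phagocytes, numbered 78 (median 7748 UMIs) and cells without it 499 (median 4153 UMIs). P2ry12 was at 332 CPM with Gpnmb and 964 CPM without, a log2 ratio of -1.54 (-1.75 to -1.33), and P2ry13 at 131 and 138 CPM, a ratio of -0.07 (-0.44 to 0.28). These intervals of the ADP receptors did not overlap. After thinning, with 43 and 524 cells, the ratios were -1.82 (-2.52 to -1.20) for P2ry12 and -0.30 (-1.54 to 0.72) for P2ry13, and the intervals overlapped. P2rx4 was at 162 and 116 CPM, a log2 ratio of 0.48 (0.13 to 0.81), with 0.41 (-0.70 to 1.35) after thinning. Gpr34 was at 631 and 815 CPM, a log2 ratio of -0.37 (-0.53 to -0.21), with -1.26 (-1.91 to -0.67) after thinning.

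Cells with the interferon-induced genes Rsad2 or Ifit3 numbered 111 and cells without them 466. P2ry12 was at 667 CPM with them and 885 CPM without (log2 ratio -0.41, -0.56 to -0.26), Gpr34 at 620 and 823 CPM (-0.41, -0.56 to -0.26) and P2rx7 at 20.6 and 38.5 CPM (-0.90, -1.83 to -0.08). After thinning the P2ry12 ratio was -0.71 (-1.08 to -0.37), while the intervals of Gpr34 (-0.72 to 0.01) and P2rx7 (-4.38 to 0.68) held 0. Cells with the division genes Top2a or Mki67 numbered 42 and cells without them 535. P2ry12 was at 454 and 883 CPM, a log2 ratio of -0.96 (-1.21 to -0.72), while the P2ry13 ratio was 0.04 (-0.43 to 0.49). The Gpr34 ratio was -0.41 (-0.63 to -0.20). With 14 and 553 cells left after thinning, the P2ry12 ratio was -1.54 (-2.75 to -0.55) and the Gpr34 ratio -1.37 (-2.69 to -0.32). Deeper cells are likelier to show a UMI of any such gene, and the median UMIs of dividing and other cells were 7876.5 and 4237. Injured cells with Xist alone and with Y-linked UMIs alone held 807 and 773 CPM of P2ry12, a log2 ratio of 0.06 (-0.08 to 0.21). In the uninjured library the same division gave 2025 and 3301 CPM, a log2 ratio of -0.71 (-1.14 to -0.30), from 6 and 235 cells.

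**Figure D4:**
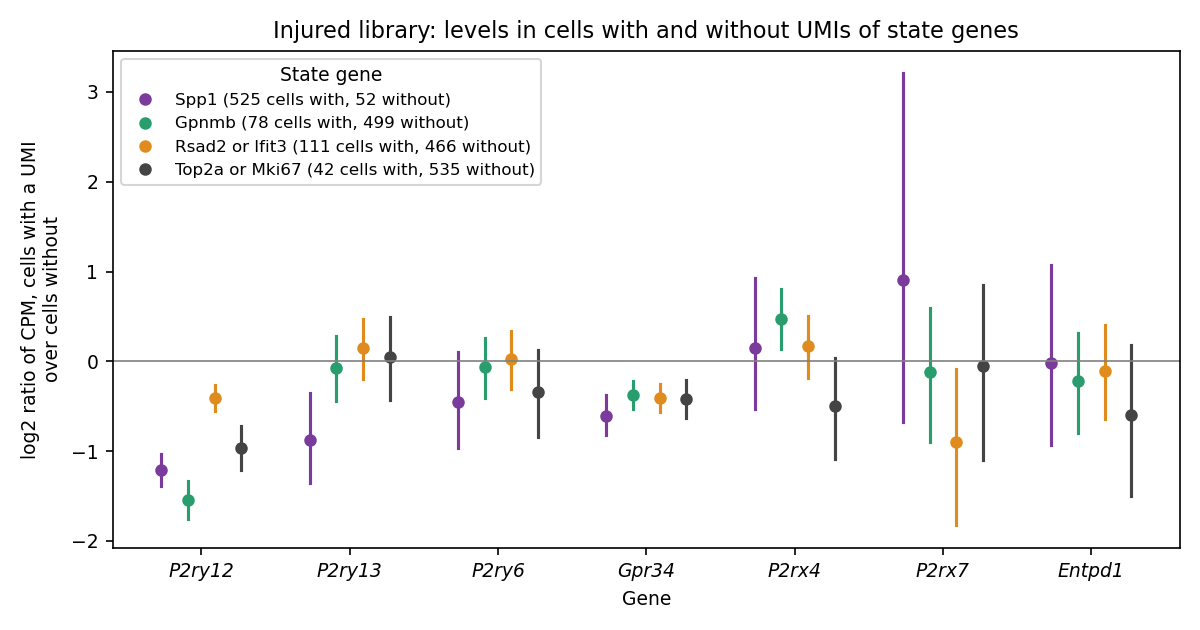
The log2 ratio of CPM between injured cells with and without UMIs of the named state genes is plotted for each of the 7 genes, with 95% counting intervals. P2ry12 and Gpr34 lie below 0 for Spp1, Gpnmb, interferon and division genes, and P2ry13 lies near 0 for all of these but Spp1.

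Over 11 points, 1 for each library and cluster with at least 20 cells, the genes whose level followed P2ry12 most closely were Csf1r, Siglech, Bin2, Lpcat2, Pld4 and Slc2a5. Their Pearson correlations with P2ry12 in log2(CPM + 10) ran from 0.99 for Csf1r, the receptor for the growth factor that microglia live on, to 0.98 for Slc2a5, among 2858 genes with a median of 0.08. Points of 1 library share its depth and preparation, so these values are a description. Csf1r was at 944 CPM in the injured library and 1968 CPM in the uninjured library, and Slc2a5, a fructose transporter, at 48.1 and 260 CPM. Within the group of 7, Entpd1 (0.92) and Gpr34 (0.92) followed P2ry12 more closely than P2ry13 (0.86) and P2rx7 (0.71). P2ry6 had 0.14 and P2rx4 -0.59.

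A wider list of 62 purinergic genes held receptors, nucleotide and adenosine handling, ATP release and downstream partners. Of its 55 genes outside the group of 7, 28 had at least 20 UMIs, of which 6 were at least 2-fold higher and 6 at least 2-fold lower in the injured library, 21.4% in each direction, with a median log2 ratio of -0.22. Over all genes tested these shares were 7.22% and 11.5%. With cells thinned first, 2 genes of the whole list were at least 2-fold higher and 5 lower, against 6 and 10 as counted.

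Among P2X and P2Y receptors, P2rx2, P2rx3, P2rx5, P2rx6, P2ry1, P2ry4 and P2ry10 had 0 UMIs in both libraries, which allows up to 0.969 CPM in the injured library and 1.43 CPM in the uninjured library. Of the ectonucleotidase list, 3 of 6 genes with enough UMIs were at least 2-fold higher and 1, Entpd1, was at least 2-fold lower. Over all genes tested these shares were 7.22% and 11.5%. The higher genes were Enpp1, Enpp2 (32 injured and 3 uninjured UMIs) and Entpd5 (19 and 6 UMIs). The interval of the Entpd5 log2 ratio held 0 (-0.28 to 2.71), and its ratio after thinning was 0.09. Enpp1, which splits ATP to AMP and pyrophosphate, was at 19.1 CPM in the injured library and 4.3 CPM in the uninjured library, a log2 ratio of 2.15 (1.13 to 3.35). Nt5e, which takes AMP on to adenosine, had 3 UMIs in the injured library and 1 in the uninjured library.

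On the adenosine side, CPM was lower by 2-fold or more for 3 of 5 genes and higher for 1, against 11.5% and 7.22% of all genes tested. The receptor Adora3 was at 42.0 CPM in the injured library and 94.6 CPM in the uninjured library (log2 ratio -1.17), and the nucleoside transporter Slc29a3 had a ratio of -1.25. A related transporter, Slc29a1, was at 54.9 and 110 CPM and fell short of 2-fold with TMM (-0.85) and DESeq2 factors (-0.81). With DESeq2 factors Adora3 was at -0.99, and after thinning Adora3 was at -0.73 and Slc29a3 at -0.80. Adk, which phosphorylates adenosine, was at 19.7 and 9.08 CPM, a ratio of 1.12 (0.36 to 1.94), and 0.47 after thinning. Of 9 genes for signalling below P2Y12 and for the potassium channel THIK-1 (Kcnk13), 2 G-protein subunits, Gnb2 (-1.02) and Gng10 (-1.06), were at least 2-fold lower, against 11.5% of all genes tested. Neither was with TMM (-0.87 and -0.91) or DESeq2 factors (-0.83 and -0.87). Gnai2, the inhibitory subunit to which P2Y12 couples, was at 210 CPM in the injured library and 293 CPM in the uninjured library (log2 ratio -0.48, -0.64 to -0.32), and Kcnk13 at 64.9 and 99.4 CPM (-0.61).

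Of 7 inflammasome genes acting below P2X7, 2 were at least 2-fold higher and 0 at least 2-fold lower in the injured library. Over all genes tested the shares were 7.22% higher and 11.5% lower. Nlrp3, the sensor, was at 157 CPM in the injured library and 63.1 CPM in the uninjured library, a log2 ratio of 1.32 (1.04 to 1.61). Il1b, the cytokine released, was at 414 and 144 CPM, a ratio of 1.52 (1.34 to 1.71), and 0.94 in the cells with Y-linked UMIs alone. The adaptor Pycard had a ratio of 0.33 (0.21 to 0.44) and the protease Casp1 one of -0.01 (-0.31 to 0.31), while Gsdmd, which forms the membrane pore, had -0.75 (-1.03 to -0.47).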

How the data were processed

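Messenger RNA was counted with the 10x Chromium 3′ version 2 chemistry. The deposited files hold the authors' raw UMI counts, whole numbers that were not normalised, for 580 injured and 705 uninjured barcodes, the numbers of recovered cells that the labels state. The tools named per the submitters' processing notes are Cell Ranger 2.0.1, STAR and Seurat 2.1.0, with GRCm38.p5 (mm10) as the build. The sources used here do not give their settings or a filter on barcodes.

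A minimum of 200 genes and a maximum of 10% mitochondrial UMIs per barcode removed 3 injured and 10 uninjured barcodes. UMIs were summed per library and scaled to CPM with exact Poisson 95% intervals. Intervals of the log2 ratio, injured over uninjured, come from the Clopper-Pearson interval of a gene's injured share of UMIs, and the same method served for shares of cells. UMIs of different genes are not scaled by length, and each ratio was taken within a gene. Levels of different genes were set side by side for marker lists and for genes that overlap a member. With 1 library per group no test was made, and a gene was counted as higher or lower at 2-fold when it had at least 20 UMIs. A count of 0 was given a floor of 3 counts. Thinning was to 1500 UMIs without replacement, with 10 injured and 91 uninjured cells left out. Simulated counts of 9066 genes, 200 of them changed by 2 on the log2 scale, gave intervals that held the true value in 95.9% of genes. These counts were drawn from the Poisson law that the intervals assume. The value therefore checks the calculation and cannot show how the intervals cover spread beyond counting error.

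Cells were clustered with scanpy 1.11.5 (10000 UMIs per cell, 2000 variable genes, 20 components, 15 neighbours, Leiden resolution 0.8), leaving out the 7 genes, the wider purinergic list, Xist, Tsix and Y-linked genes. Scrublet predicted 1 injured and 18 uninjured doublets, which were kept. Scatter gates had removed doublets at the sort, per the labels' protocols. Alternative scalings came from edgeR 4.0.16 (TMM) and DESeq2 1.42.0. Outside the 7 genes, the text names list genes from among those with at least 50 UMIs in a library, and the 6 genes most correlated with P2ry12 among those with at least 200 UMIs. The receptors at 0, Nt5e, Enpp2, Entpd5 and the genes that overlap a member or lead a cluster were named besides. The members and gene lists were chosen with earlier results of these data known. Promoter windows were found for 5 of the 7 genes.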

Additional observations from a re-analysis of the deposited data

How the results depend on the processing

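Of 84 comparisons of the 7 log2 ratios with an alternative, 71 moved by less than the counting interval and 13 left it, and none of the called ratios changed sign. P2ry12 was -1.83 with TMM and -1.79 with DESeq2 size factors, -1.70 for CPM averaged over cells, -1.64 after thinning, and -2.09 both for cells with Y-linked UMIs alone and without clusters 0 and 1. P2ry13 was -1.64 with DESeq2 factors. Gpr34 was -0.80 with TMM, -0.76 with DESeq2 factors, -0.85 after thinning and -1.07 without clusters 0 and 1. P2ry6 was 0.11 for cells with Y-linked UMIs alone and -0.35 without clusters 0 and 1. TMM raised every log2 ratio by 0.15 and DESeq2 factors by 0.19; other causes were not tested. Clusters 0 and 1 (34 injured and 308 uninjured cells), cluster 7 and cluster 8 were left out after seeing the data. Without predicted doublets, without barcodes carrying markers of other cells, without a cell filter or without the 10 cells with most UMIs, all 7 ratios stayed within their intervals.

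Of the 7 genes, 2 were at least 2-fold lower with DESeq2 factors and 2 with CPM averaged over cells, against 4. Of the wider list, 6 genes were lower with TMM, 4 with DESeq2 factors, 3 with averaged CPM, 5 after thinning and 16 with no UMI minimum, against 10. The genes higher numbered 2 after thinning, 3 for cells with Y-linked UMIs alone, 11 with no minimum and 2 with a minimum of 100 UMIs, against 6.

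Shares of cells with a UMI follow depth. At 2500 UMIs the shares in injured and uninjured cells were 72.6% and 97.4% for P2ry12, 29.2% and 68.8% for P2ry13, 33.3% and 31.8% for P2ry6, 27.6% and 24.0% for P2rx4, 9.14% and 18.6% for P2rx7, 79.8% and 94.6% for Gpr34, and 14.8% and 26.2% for Entpd1. Without thinning they were 85.8% and 97.6%, 45.2% and 67.5%, 51.6% and 36.4%, 43.0% and 25.8%, 15.3% and 18.4%, 88.2% and 93.1%, and 26.3% and 32.4% for the genes in that order. With cells thinned to 1500 UMIs, a single draw differed from the mean over all draws by at most 2.70 percentage points. The gap was wider for Entpd1 in uninjured cells at 2500 UMIs, with 26.2% in the draw and 29.8% over all draws.

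The log2 of the highest over the lowest injured cluster was 2.95 for P2ry12, 1.03 for P2ry6 and 1.62 for Gpr34 at resolution 0.5. At resolution 1.2 it was 4.38 for P2ry12, 2.27 for P2ry13, 0.78 for P2ry6, 1.75 for P2rx4 and 2.22 for Gpr34. No paired analysis was possible because each group has 1 library, so the groups share fewer than 2 replicate numbers. Depth limits P2rx7 and Entpd1 most, whose intervals are the widest of the 7.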
